A study of Homo sapiens with 2 samples.

Results

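The genes described here are the kinase gene MTOR, some further subunits of its complexes (RPTOR, MLST8, RICTOR and DEPTOR) and 5 genes of the nutrient and growth factor inputs to mTORC1 (TSC1, TSC2, RHEB, RRAGD and KICS2). All probe sets that the platform annotation paired with exactly 1 of these 10 genes were taken, which gave 27 of the 41091 probe sets paired with 1 gene, and 10 of 19775 genes. The RNA came from KYSE170-luc, a human esophageal squamous carcinoma cell line carrying luciferase, 12 h after transfection. The SOX17 array held RNA of cells given a SOX17 expression plasmid, and the empty vector array held RNA of cells given the empty vector. The cells are 1 line, and the share of cells that took up plasmid is not given by the labels. The genes were chosen by their place in the pathway and by ratios seen earlier on these same arrays, those of RPTOR and KICS2 in particular, so all ratios below are descriptions and none was tested.

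mTOR is a serine/threonine kinase that works in a pair of complexes. In mTORC1 it is held by RPTOR (raptor), which brings in substrates of protein synthesis and autophagy control, and in mTORC2 by RICTOR, which is needed to phosphorylate AKT. mTORC1 is active at the lysosome when amino acids load the Rag GTPases and growth factors release RHEB from the TSC complex. GATOR1 turns the Rag GTPases off, and KICSTOR, which contains KICS2, holds GATOR1 at the lysosome.

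Among the 10 genes, each read by its probe set of the highest level, RPTOR (lower on the SOX17 array) and KICS2 (higher on it) differed most. RPTOR, with 1 probe set, read an intensity of 61.4 on the SOX17 array and 300.2 on the empty vector array. The 2 KICS2 probe sets measured on both arrays were higher on the SOX17 array, 1 of them 1.61-fold and the other just past 2-fold. MTOR and RICTOR read lower on the SOX17 array on every measured probe set, by less than 1.5-fold. TSC1, TSC2, MLST8 and the brightest RHEB probe sets were higher on it, also by less than 1.5-fold, while DEPTOR and RRAGD were too dim on both arrays to compare.

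Each group had 1 array, so there was no replicate and no test between the conditions was possible. The values are linear intensities, which had been scaled by the time of deposit, since both arrays had the same trimmed mean of 500.1 once 2% was cut from each end. A probe set was called measured when both arrays read 95 or more, the 60th percentile of all values, and this level is called the floor below. Each log2 ratio divides the SOX17 intensity by that of the empty vector, so a positive value means brighter on the SOX17 array. Pairs of probe sets that report 1 gene gave an SD of a log2 ratio, which was 0.37 for dim (lowest tertile of level), 0.29 for middling and 0.19 for bright probe sets. It measures how far probe sets of 1 gene disagree within the 2 arrays, not variation from culture to culture. An error that both probe sets of a pair share is not in it. In bulk RNA of transfected cells, a small difference in all cells and a larger one in some cells cannot be told apart.

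The labelled cell type was checked first. All 5 squamous epithelial genes with a named probe set (KRT5, KRT14, SFN, DSG3 and DSC3) were measured, with log2 ratios of 0.14, 0.27, 0.06, -0.26 and -0.07. Their summed intensities were 57410.9 on the SOX17 array and 55019.7 on the empty vector array, most of it from SFN (52641.3 and 50352.6 in that order). The 4 general epithelial genes EPCAM, CDH1, KRT8 and KRT18 were measured too, with log2 ratios of -0.12 to -0.06 and sums of 72880 on the SOX17 array and 78488 on the empty vector array. None of 4 endothelial, 1 of 5 leukocyte (CD79A) and 1 of 5 fibroblast markers (COL1A1) was measured, and their part in the ratios was not tested. KRT6A, KRT17 and TP63 were not analysed here. The endothelial markers ranged from 3.8 to 84.7 on the SOX17 array and from 24.8 to 89.6 on the empty vector array, all below the floor, where readings have no usable order. The 4 unmeasured markers of each of the leukocyte and fibroblast lists lay below the floor on both arrays as well. The summed level of the fibroblast list was 966.5 on the SOX17 array and 899.6 on the empty vector array, of which COL1A1 gave 845.1 and 780.2 in that order. The plasmid's own gene, SOX17, lay below the floor on both of its probe sets, at 83.8 and 6.5 on the SOX17 array and 4.5 and 19.1 on the empty vector array. These arrays therefore do not show whether SOX17 RNA was raised. The spiked poly-A controls were higher on the SOX17 array on all 24 of their probe sets (median log2 ratio 0.57), and their part in the ratios below was not tested. The actin control read 10.4 times brighter at its 3 prime than its 5 prime end on the SOX17 array, and 11.6 times on the empty vector array. For the GAPDH control these ratios were 1.18 and 1.16 in that order. Their part in the readings of single probe sets was not tested either.

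Of the 27 probe sets, 14 were measured, 1 reached the floor on the empty vector array only (RPTOR) and 12 lay below it on both arrays. By its probe set of the highest level, 7 of the 10 genes were measured. On the SOX17 array 1 of these 7 genes was higher by 1.5-fold or more, as were 3.78% of all 10034 measured genes, and 0 were lower by 1.5-fold or more, as were 3.19%. None was 2-fold different by that probe set, against 0.747% of measured genes. Their log2 ratios ran from -0.42 (MTOR) to 0.69 (KICS2) with a median of 0.14, and the median of all measured genes was 0.03. Of the 14 measured probe sets, 6 had a log2 ratio within 1 SD of 0, as had 61.8% of all 20064 measured probe sets.

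**Figure D1:**
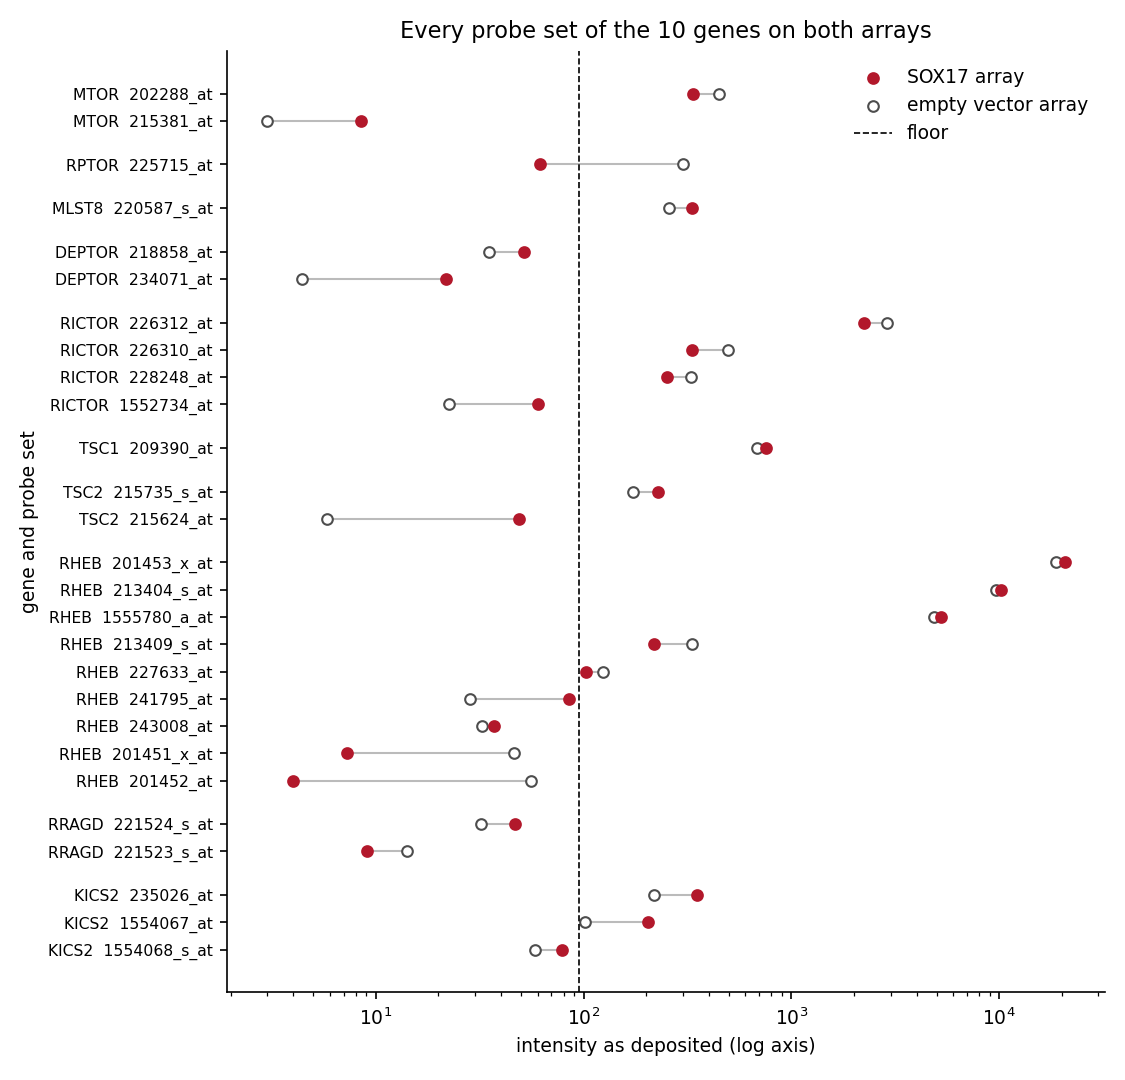
Intensity (log axis) of all 27 probe sets of the 10 genes on the SOX17 array (filled) and the empty vector array (open), 1 row per probe set, with the floor of 95 as a dashed line. RPTOR is the 1 probe set whose values lie on either side of the floor, at 61.4 on the SOX17 array and 300.2 on the empty vector array.

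RPTOR is the scaffold that defines mTORC1 and recruits its substrates. Its single probe set read 61.4 on the SOX17 array, below the floor, and 300.2 on the empty vector array. Against the floor its intensity was at least 3.16-fold lower on the SOX17 array, and no error can be given for that bound. Of 8865 genes at 2 times the floor or more on the empty vector array, 20 (0.226%) lay below the floor on the SOX17 array, RPTOR among them. Of the 1000 probe sets closest to RPTOR in intensity on the empty vector array (275.3 to 327.4, RPTOR included), 2 lay below the floor on the SOX17 array and 1, RPTOR itself, read 61.4 or less. The median of those 1000 on the SOX17 array was 293.9. With 1 probe set, no second reading of this gene was available on these arrays. RPTOR was chosen partly for this low reading, so its place among those genes and probe sets is a description and no test.

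The promoters of the genes with the largest differences are shown because the plasmid's gene, SOX17, encodes a DNA-binding protein. The level of that protein was not measured. They run from 250 bases before to 50 bases after the RefSeq start, on the gene's strand, in GRCh38.p14. Capitals mark ACAAT or its complement ATTGT, the core letters bound by SOX proteins, and CACGTG, the E-box read by factors of the MYC and TFE families, which reads the same on both strands. The RPTOR window is chr17:80544588-80544887 (plus strand) and the KICS2 window is chr12:64222247-64222546 (minus strand).
RPTOR: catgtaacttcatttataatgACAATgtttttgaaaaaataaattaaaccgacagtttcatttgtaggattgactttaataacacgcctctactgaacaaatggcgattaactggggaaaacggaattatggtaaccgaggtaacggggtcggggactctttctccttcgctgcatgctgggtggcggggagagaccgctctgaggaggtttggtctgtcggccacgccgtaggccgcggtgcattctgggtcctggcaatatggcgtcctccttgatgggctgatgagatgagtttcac
KICS2: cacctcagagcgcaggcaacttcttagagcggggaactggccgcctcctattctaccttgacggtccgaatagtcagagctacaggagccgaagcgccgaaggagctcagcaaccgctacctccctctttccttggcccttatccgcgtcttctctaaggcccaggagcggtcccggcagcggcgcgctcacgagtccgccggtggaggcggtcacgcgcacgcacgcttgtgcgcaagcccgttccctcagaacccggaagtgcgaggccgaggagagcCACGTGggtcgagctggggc

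The RPTOR window held 1 ACAAT, starting 229 bases before the RefSeq start, and no E-box. The KICS2 window held no ACAAT or ATTGT and 1 CACGTG, whose first base is base 31 of the transcript. Of all 35097 windows of this length, 27.4% held ACAAT or ATTGT and 7.25% held CACGTG. Windows were at hand for 7 of the 10 genes (MTOR, RPTOR, RICTOR, RHEB, TSC1, TSC2 and KICS2). Besides RPTOR none of these held the SOX core letters, and besides KICS2 1 of the 2 TSC2 windows held an E-box. These matches describe letters and are no evidence of binding.

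MTOR, the catalytic subunit of both complexes, read 336.8 on the SOX17 array and 449.4 on the empty vector array (log2 ratio -0.42). That difference was larger than the SD of 0.29 for its level, and 13.2% of the 1000 measured probe sets nearest in level had a ratio as low. Its other probe set read 8.5 on the SOX17 array and 3 on the empty vector array, both far below the floor. MLST8, a WD-repeat subunit that binds the kinase domain in both complexes, read 333.4 on the SOX17 array and 258.6 on the empty vector array (log2 ratio 0.37, just inside the SD of 0.37 at its level). Of probe sets near it in level, 16.4% had a ratio as high. MTOR and its partner MLST8 thus lay on opposite sides of 0, each with 1 measured probe set.

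RICTOR, the scaffold of mTORC2, was lower on the SOX17 array on all 3 of its measured probe sets. They read 2238.1 on the SOX17 array and 2873.3 on the empty vector array (log2 ratio -0.36), 333.1 and 493.5 in the same order (-0.57), and 253.1 and 329.3 (-0.38). Each lay beyond the SD for its level, of 0.19, 0.29 and 0.37 in turn. The 3 probe sets thus gave the same direction at 3 different intensities. Of 1820 genes with 3 or more measured probe sets, 19.8% had every one below 0. The other RICTOR probe set was under the floor, at 60.5 on the SOX17 array and 22.6 on the empty vector array, so no difference is stated for it.

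DEPTOR, a protein that binds mTOR and inhibits both complexes, was below the floor on both probe sets. They read 51.7 and 21.7 on the SOX17 array, against 35 and 4.4 on the empty vector array. Readings this dim have no usable order, so no difference is stated.

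**Figure D2:**
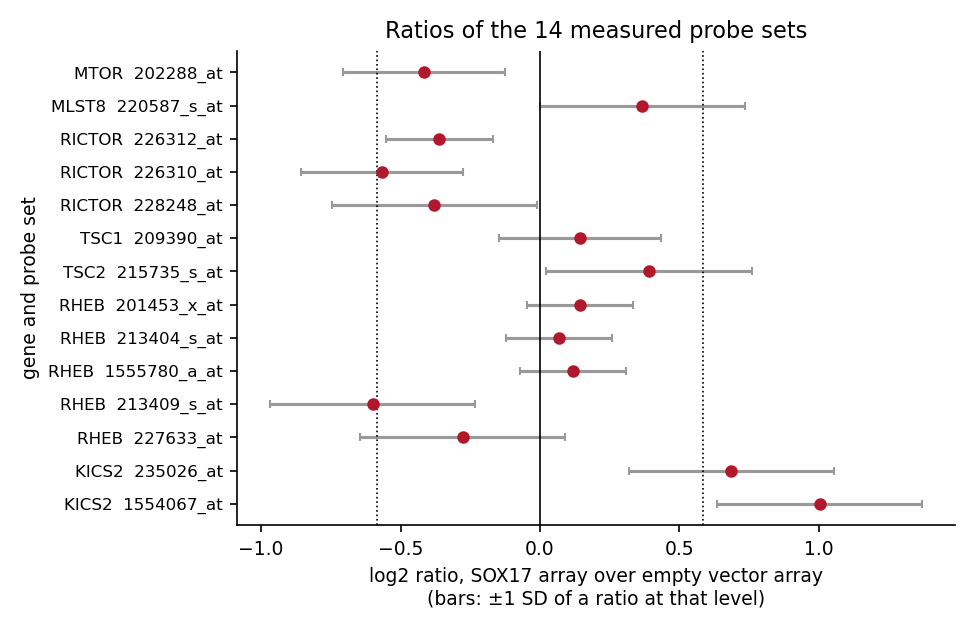
Log2 ratio, SOX17 array over empty vector array, of the 14 measured probe sets, with bars of ±1 SD of a ratio at that level and dotted lines at 1.5-fold. The 3 RICTOR probe sets lie at -0.57 to -0.36, the 5 of RHEB at -0.60 to 0.14, and the 2 of KICS2 at 0.69 and 1.00.

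TSC1 and TSC2 are the core of the complex that switches RHEB off. TSC1 read 756.1 on the SOX17 array and 684.6 on the empty vector array (log2 ratio 0.14), a difference smaller than the SD of 0.29. TSC2, the subunit with the GTPase-activating domain, read 227.1 on the SOX17 array and 173.2 on the empty vector array (0.39, against an SD of 0.37), and 20.1% of probe sets near it in level had a ratio as high. The other TSC2 probe set lay below the floor on both arrays, at 48.9 on the SOX17 array and 5.8 on the empty vector array. TSC1 and TSC2 both read slightly higher on the SOX17 array, and 32.8% of probe sets near TSC1 in level had a ratio as high as its own.

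RHEB, the small GTPase that activates mTORC1 directly, had 9 probe sets, of which 5 were measured and 4 lay below the floor. Its 3 brightest probe sets read 20671.5, 10159 and 5252.7 on the SOX17 array, against 18702.5, 9685.4 and 4834.3 on the empty vector array, with log2 ratios of 0.14, 0.07 and 0.12. All 3 were within the SD of 0.19 at that level. A dimmer probe set read 218.6 on the SOX17 array and 331.4 on the empty vector array (-0.60, 1.52-fold lower), and another read 102.3 and 124 in that order (-0.28). The RHEB probe sets therefore differed among themselves in sign, as did those of 76.9% of the 195 genes with 5 or more measured probe sets. The probe set of the highest level has an ID ending in _x_at, which marks probes that also match other sequences. The 4 below the floor ranged from 4 to 85.3 on the SOX17 array and from 28.5 to 55.8 on the empty vector array.

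RRAGD is 1 of 4 Rag GTPases, which form pairs on the lysosome and carry the amino acid signal to mTORC1. Both RRAGD probe sets were below the floor, at 46.5 and 9.1 on the SOX17 array, against 31.9 and 14.1 on the empty vector array, so no difference is stated. Its closest relative RRAGC, which can take its place in the pair, read 2681.1 on the SOX17 array and 2195.7 on the empty vector array (log2 ratio 0.29), and 0.03 on its other measured probe set. RRAGA read 3119.8 on the SOX17 array and 2758 on the empty vector array (0.18), and RRAGB 144.8 and 166.6 in that order (-0.20). None of these 3 Rag genes, named for their place beside RRAGD after their values were seen, reached 1.5-fold.

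KICS2 is a subunit of KICSTOR, which ties GATOR1 to the lysosome and so lets mTORC1 be shut off when amino acids are short. Its probe set of the highest level read 349.6 on the SOX17 array and 217.2 on the empty vector array (log2 ratio 0.69, 1.61-fold). Its second probe set read 203.2 on the SOX17 array and 101.4 on the empty vector array (1.00, just past 2-fold), where the empty vector value lay just above the floor. The third, at 79 on the SOX17 array and 58.3 on the empty vector array, was under the floor on both, so no difference is stated for it. Both measured KICS2 probe sets were brighter on the SOX17 array, by more than the SD of 0.37 for their level.

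Of measured probe sets near the first KICS2 probe set in level, 4.2% had a ratio as high, and of those near the second 1.4% had. Of 4574 genes of any level with 2 or more measured probe sets, 9 (0.197%) reached 1.5-fold higher on every one, KICS2 among them. At this dim end of the scale large ratios are more common: in the lowest tertile of level 10.1% of measured genes were higher by that much on the SOX17 array. The mean over the 2 measured KICS2 probe sets was 0.84. KICS2 was chosen partly for its ratios on these arrays, so the shares above describe it and are no test.

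**Figure D3:**
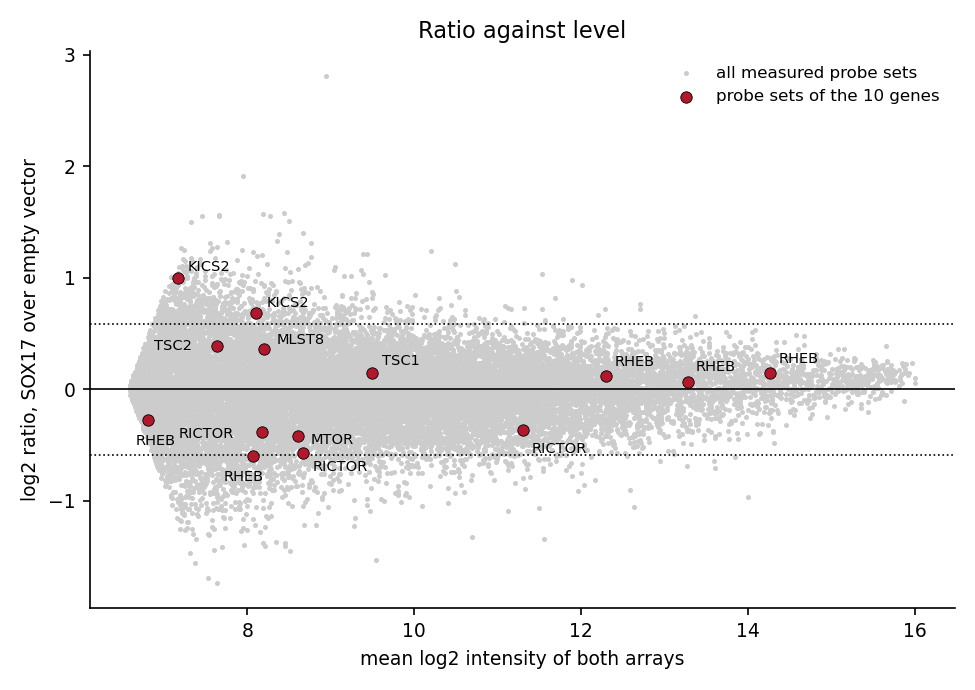
Log2 ratio, SOX17 array over empty vector array, against the mean log2 intensity of both arrays for the 20064 measured probe sets (grey) and the 14 measured probe sets of the 10 genes (red). The spread of the grey points narrows with level, from an SD of a ratio of 0.37 in the lowest tertile to 0.19 in the highest, and the 2 KICS2 points lie in the lowest tertile.

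The rest of the pathway was taken from 8 lists of 85 genes, of which 78 had a probe set named to 1 gene and 70 were measured. The other 7 were not analysed here. Of the 70, 43 had a ratio above 0, as had 54.6% of all measured genes, and 27 below; 3 were past 1.5-fold on the higher side and 2 on the lower, and 0 passed 2-fold. Their share past 1.5-fold in either direction was 7.14%, and that of all measured genes was 6.97%. Their median log2 ratio was 0.11, beside 0.03 for all measured genes. The genes past 1.5-fold were ITFG2, MAF1 and INPPL1 on the higher side and DDIT4 and PRKAA1 on the lower. Genes past 1.5-fold, or else the 1 with the largest ratio of its list, were named by rule, and further genes were named after their values were seen.

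The partners of KICS2 did not give a single picture. ITFG2, another KICSTOR subunit, read 223.5 on the SOX17 array and 127.8 on the empty vector array (log2 ratio 0.81), but its other measured probe set read 96.5 and 110.1 in the same order (-0.19). KPTN, also of KICSTOR, read 232.3 on the SOX17 array and 219.3 on the empty vector array (0.08). The GATOR1 subunits NPRL2 and NPRL3 had log2 ratios of 0.50 and 0.20, while DEPDC5 lay below the floor on both arrays. GATOR2, which restrains GATOR1, had MIOS at 0.16, SEC13 at 0.15, WDR24 at 0.12, SEH1L at -0.09 and WDR59 at -0.30. Of the 9 measured genes of these 3 complexes, 7 lay above 0, with a median of 0.15. Of all measured genes 54.6% lay above 0, with a median of 0.03.

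Beside RRAGD, the 4 measured Ragulator genes, whose products anchor the Rag GTPases to the lysosome, lay above 0 on the probe set of the highest level. LAMTOR2 read 1441.8 on the SOX17 array and 1024.9 on the empty vector array (log2 ratio 0.49), LAMTOR4 had a ratio of 0.39, LAMTOR5 of 0.13 and LAMTOR3 of 0.05. The second measured probe set of LAMTOR3 lay at -0.31. SLC38A9, the lysosomal arginine sensor that signals through Ragulator, read 965.2 on the SOX17 array and 668.4 on the empty vector array (0.53), and 2.8% of probe sets near it in level had a ratio as high. Of the 8 measured Rag, Ragulator and SLC38A9 genes 7 lay above 0, where 54.6% of all measured genes did, and 0 reached 1.5-fold.

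Of the mTOR complex scaffolds and assembly factors 8 were measured, and 0 reached 1.5-fold. Of these 8, 6 lay above 0, as did 54.6% of all measured genes. Their median log2 ratio was 0.16, beside 0.03 for all measured genes. AKT1S1, the mTORC1 inhibitor PRAS40, read 281.6 on the SOX17 array and 242.1 on the empty vector array (0.22). MAPKAP1, the mTORC2 subunit SIN1 and a partner of RICTOR, had 4 measured probe sets at -0.09 to 0.48. TELO2, which helps mTOR fold and assemble, had the largest ratio of the list at 0.36, and 0.09 on its other probe set.

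Of the genes listed with the TSC complex and RHEB, DDIT4 (REDD1), a stress-induced inhibitor that acts through the TSC complex, read 995.1 on the SOX17 array and 1840.1 on the empty vector array (log2 ratio -0.89, 1.85-fold lower, 1 probe set). TBC1D7, the remaining subunit of the TSC complex, read 1146.7 on the SOX17 array and 835.6 on the empty vector array (0.46). RHEBL1, a relative of RHEB, lay at 0.20 and 0.23 on its 2 probe sets. These 3 genes thus included both directions.

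The amino acid sensors and the folliculin complex lay on both sides of 0 (7 measured, 3 above and 4 below, median -0.04). Among all measured genes 54.6% lay above 0, and their median was 0.03. SESN1, of the leucine-sensing sestrins, read 310.7 on the SOX17 array and 217.9 on the empty vector array (log2 ratio 0.51). SESN3 had 2 measured probe sets, at 0.41 and 0.63. FLCN, whose complex acts on RRAGC and RRAGD, lay at -0.04, and its partners FNIP1 and FNIP2 at -0.50 and -0.30. The 4 measured probe sets of FNIP1 ranged from -0.65 to 0.08.

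**Figure D4:**
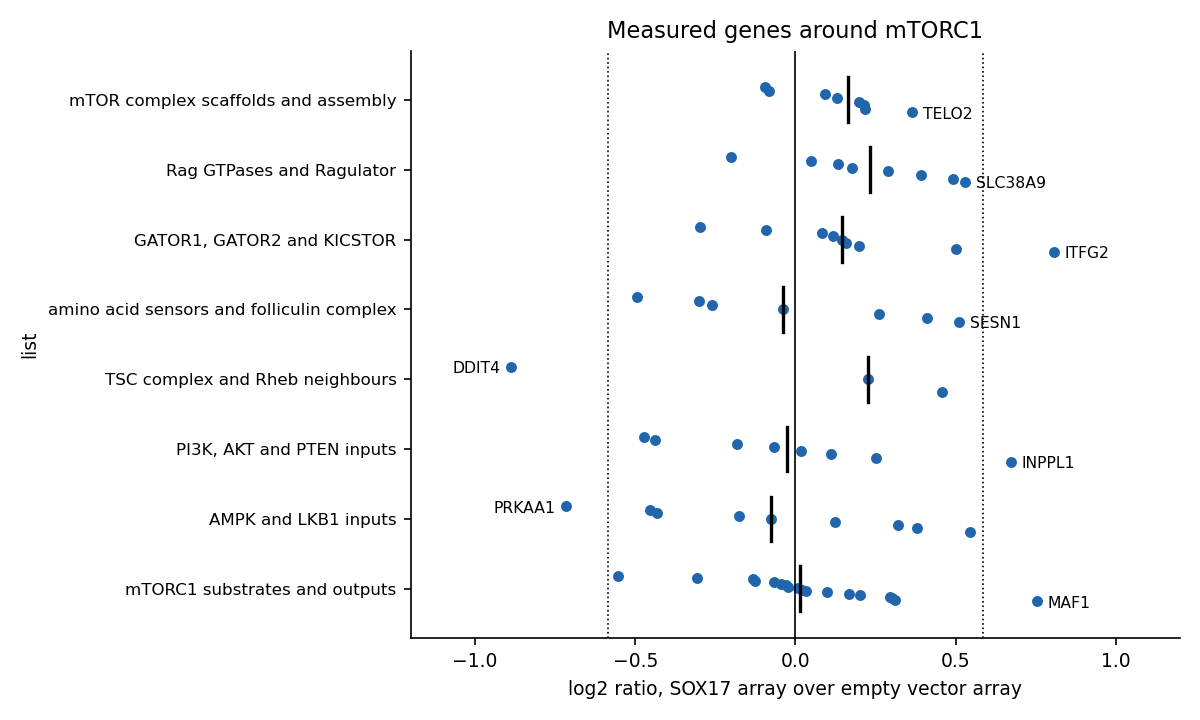
Log2 ratio, SOX17 array over empty vector array, of the 70 measured genes of 8 pathway lists, 1 point per gene, with each list's median as a black bar and dotted lines at 1.5-fold. The medians lie between -0.08 and 0.23, and 5 genes lie past 1.5-fold: ITFG2, INPPL1 and MAF1 higher on the SOX17 array, DDIT4 and PRKAA1 lower.

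Of the growth factor inputs, 8 genes of the PI3K and AKT branch were measured, 4 above 0 and 4 below (median -0.02). The share of all measured genes above 0 was 54.6%, with a median of 0.03. INPPL1, a phosphatase of the PI3K lipid product, read 339 on the SOX17 array and 212.5 on the empty vector array (log2 ratio 0.67, 1 probe set). AKT1 lay at 0.11 and AKT2 at -0.44. IRS2, an adaptor of the insulin receptor, lay at -0.47 and -0.57 on its 2 probe sets.

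Of the energy-sensing inputs, 9 genes were measured, 4 above 0 and 5 below (median -0.08), where 54.6% of all measured genes lay above 0 (median 0.03). PRKAA1, the catalytic subunit of AMPK, which phosphorylates TSC2 and RPTOR when energy is low, read 1145.6 on the SOX17 array and 1881.5 on the empty vector array (log2 ratio -0.72). A second PRKAA1 probe set read 1577.7 on the SOX17 array and 1302.5 on the empty vector array (0.28), and the third lay at -0.63. The 3 measured PRKAA1 probe sets thus differed in sign. The other catalytic subunit PRKAA2 lay at -0.45, with 4 measured probe sets from -0.45 to 0.39, and the AMPK kinase STK11 at -0.43 and 0.11 on its 2. The regulatory subunits PRKAB1 and PRKAG1, with 1 measured probe set each, lay at 0.54 and 0.38.

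Among 21 substrates and outputs of mTORC1, 18 were measured, 10 above 0 and 8 below (median 0.01). For all measured genes the share above 0 was 54.6% and the median 0.03. RPS6KB1, the S6 kinase that RPTOR recruits, was lower on the SOX17 array on all 3 measured probe sets, and the probe set of the highest level read 1421.6 there and 2086.1 on the empty vector array (log2 ratios of -0.55, -0.29 and -0.19). Such agreement below 0 was seen in 19.8% of genes with 3 or more measured probe sets. EIF4EBP1, the translation repressor that mTORC1 inactivates, read 2310.4 on the SOX17 array and 1864 on the empty vector array (0.31). MAF1, a repressor of RNA polymerase III that mTORC1 phosphorylates, read 488.6 on the SOX17 array and 289.5 on the empty vector array (0.76, 1 probe set). The transcription factors TFE3 and MITF, which mTORC1 keeps out of the nucleus and which are known to drive RRAGD, lay at -0.04 and -0.12, and TFEB was at the floor, at 98.3 on the SOX17 array and 96.9 on the empty vector array. With 2 arrays, any genes whose ratios share a sign have the same pattern, so no gene is named for resembling RPTOR or KICS2.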

How the data were processed

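RNA of 2 cultures of KYSE170-luc, 1 per group, was hybridised to Affymetrix arrays as biotinylated cRNA, per the labels' protocols. Per the submitters' processing notes, the authors used GCOS to make the deposited values, which are linear intensities. The sources used here name no version, algorithm, settings or detection calls. Values were used as deposited. Groups came from the labels.

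Probe sets were named by GEO's platform annotation where it gave 1 gene, and 0 symbols needed an update against RefSeq. The floor was the 60th percentile of both arrays pooled (95). Each gene's ratio was that of its probe set of the highest level (mean log2 value). A gene at 2 times the floor or more on 1 array and below it on the other got a bound against the floor. The SD of a ratio was that of the difference between the 2 brightest measured probe sets of a gene, divided by the square root of 2. The members, lists and rules were chosen with earlier results of these data known. All 10 genes were named with every probe set. From each of 8 lists the genes past 1.5-fold (at most 4) or, failing these, the 1 with the largest ratio were named. Precision is limited by the number of arrays, and no p-value was computed.

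Promoter sequences came from RefSeq (GRCh38.p14). Alternatives were centring, quantile normalization, loess (span 0.4), the mean over probe sets, a lower floor (50th percentile), a higher one (75th) or none, leaving out IDs ending in _x_at or _s_at, and other fold sizes. Python 3.11.15, numpy 2.4.6, pandas 2.3.3 and statsmodels 0.14.6 were used, and the scripts were tested on simulated data.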

Additional observations from a re-analysis of the deposited data

How the results depend on the processing

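No paired analysis was possible because each group had 1 array. Centring, quantile normalization and loess left the 7 member ratios within 1 SD of their values, KICS2 between 0.68 and 0.70, and RPTOR at least 3.15-fold lower on the SOX17 array. The floor mattered most. With the floor of 95, 1 of 7 measured members (KICS2) was past 1.5-fold, beside 6.97% of all measured genes. With a floor at the 50th percentile it was 2 of 8 (KICS2 and RPTOR), beside 10.1%. With no floor the same 2 passed, of 10, beside 36.0% of all genes. With a floor at the 75th percentile 0 of 4 passed, beside 3.21%. At that floor of 311.9, RPTOR lay below the floor on both arrays. KICS2 was not measured either, because its empty vector value of 217.2 lay below it. The median of the 4 measured members was -0.11. With the floor of 95, 0 of 7 measured members were past 3-fold, a size for which no share of all measured genes is given here. RPTOR, at least 3.16-fold lower on the SOX17 array, is not among those 7. Members past 2-fold numbered 0 of 7, but 1 of 8 (RPTOR) with a floor at the 50th percentile, beside 1.83% of all measured genes. With no floor it was 1 of 10 (RPTOR), beside 23.7%. The 5 of 70 pathway genes past 1.5-fold became 2 of 55 (3.64%) with a floor at the 75th percentile. With no floor they became 12 of 78 (15.4%), beside 36.0% of all genes. The mean over probe sets gave 3 of 70 (4.29%), beside 5.7%. Leaving out _x_at and _s_at probe sets gave 3 of 48 (6.25%), beside 7.99%. With the floor of 95, 0 of 70 passed 2-fold. All measured genes past 1.5-fold numbered 699 of 10034. They were 1147 of 11310, 243 of 7562 and 7118 of 19775 with floors at the 50th and 75th percentile and none. Past 2-fold they numbered 75, and 207, 16 and 4685 under the same floors. With the mean over probe sets RHEB lay at -0.11, ITFG2 at 0.31 and PRKAA1 at -0.36. Without _x_at and _s_at probe sets MLST8 and TSC2 were not measured. Dim probe sets limit the values of RPTOR, KICS2, DEPTOR and RRAGD.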

Other observations

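Several pathway genes gave different readings from different probe sets, a pattern seen after the values were known. Of 38 pathway genes with 2 or more measured probe sets, 18 (47.4%) had ratios both above and below 0, and of all 4574 such genes 51.3% had. In 5 of the 38 (13.2%) 1 of the opposed probe sets also passed 1.5-fold, against 10.2% of all such genes. They were EEF2K, FNIP1, ITFG2, PRKAA1 and PRKAB2. EEF2K, the kinase that slows translation elongation and is restrained by S6 kinase, read 1634 on the SOX17 array and 1453.6 on the empty vector array on one probe set (log2 ratio 0.17), and 110 on the SOX17 array and 237 on the empty vector array on the other (-1.11). PRKAB2, a regulatory subunit of AMPK, had 3 measured probe sets at -0.05, 0.12 and 0.68. SESN2, a sestrin whose gene responds to stress, lay at -0.26 and 0.58.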
